A study of Sus scrofa with 12 samples.

Results

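In the *Semimembranosus* muscle, a large ham muscle, of 12 Italian Large White pigs, 8 genes of cyclic AMP breakdown and protein kinase A regulation were measured. They are the phosphodiesterases PDE4A, PDE4B, PDE4D, PDE7A, PDE7B and PDE8A and the regulatory subunits PRKAR1A and PRKAR2A. They were chosen by name, and 8 of the 9 genes listed had an Ensembl identifier in the pig gene name table, among 25880 genes in the count matrix. CREM, the cyclic AMP responsive element modulator, had no identifier and was not analysed here. All 8 passed the filter on low counts, and each had at least 1215 reads in every pig.

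Of the pigs, 6 had high intramuscular fat (IMF; pigs 1 to 6) and 6 had low IMF (pigs 7 to 12), picked by the study as extremes of a larger population. Each group was labelled as 3 females and 3 castrated males of a live weight of 150 to 160 kg, and ages were 234 to 244 days in high IMF pigs (median 243) and 229 to 249 days in low IMF pigs (median 237). No drug, diet or genotype was set to differ between the groups, and genetic differences between them were not examined here. The pigs were reported as unrelated and kept on the same farm conditions and feed, and their beta-adrenergic state was not set by the design. Polyadenylated RNA of whole muscle was sequenced with a stranded kit, and pigs had 131048805 to 154840282 counts in the high IMF group and 133915596 to 178013997 in the low IMF group. Counts on 2 Y chromosome genes went against the labelled sex in 6 pigs (2 high IMF, 4 low IMF). By these counts, 3 pigs of each group carried a Y chromosome, with at least 3734 reads against at most 6 in the others. Whether each count column belongs to the pig and group it is labelled with was not tested, a limit on every comparison below. The skeletal muscle genes ACTA1, CKM and DES, which define the labelled tissue, summed to 24850 to 50870 CPM in the pigs. CPM are counts scaled to a common library total after TMM normalization.

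Cyclic AMP is made by adenylyl cyclases when a receptor such as the beta-adrenergic receptor activates the stimulatory G protein. It binds the regulatory subunits of protein kinase A and so releases the catalytic subunits, which phosphorylate enzymes of glycogen and fat breakdown and the transcription factor CREB. Phosphodiesterases hydrolyse cyclic AMP and end the signal. Those of the PDE4, PDE7 and PDE8 families act on cyclic AMP alone, and PDE4 enzymes are held close to their targets by anchoring proteins and arrestins. In muscle the pathway is known for mobilising glycogen and fat and for its effect on fibre growth under beta-agonists.

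The genes differ in how they are laid out. PDE4D (ENSSSCG00000016929) lies at chr16:37897300-39406534 on the minus strand of Sscrofa11.1, where RefSeq gives 26 transcripts from 23 start sites. PDE4A (ENSSSCG00000013642) and PDE4B (ENSSSCG00000003805) lie at chr2:69225403-69268327 on the plus strand and at chr6:146167262-146720105 on the minus strand, each with 6 start sites. PDE7A (ENSSSCG00000006218) lies at chr4:68777910-68896583 on the plus strand, PDE7B (ENSSSCG00000004165) at chr1:27958261-28425754 on the minus strand and PDE8A (ENSSSCG00000001810) at chr7:52410766-52558482 on the minus strand. The regulatory subunit genes PRKAR1A (ENSSSCG00000017259) and PRKAR2A (ENSSSCG00000011363) lie at chr12:11662344-11681490 and chr13:31427786-31517005, both on the minus strand. The counts are per gene, so start sites and transcripts of one gene were summed.

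CREB binds the cyclic AMP response element, TGACGTCA, and its half-site, TGACG or CGTCA on the other strand. The 250 bases before each RefSeq start site of protein-coding genes were searched for these letters on both strands. A full element counts as a half-site too. Windows of close start sites overlap, so they are not all separate stretches of sequence. A full element was in 2 of the 64 windows of the listed genes, against 1.554% of the 45997 windows of all protein-coding RefSeq genes, too few to compare. These were 1 of 5 windows of PDE7B and 1 of 3 windows of PRKAR1A. The half-site was in 10 of the 64 windows of the listed genes, CREM included, against 20.512% of all windows. No window of PDE4D (of 23), PDE7A (of 2) or PRKAR2A (of 1) held either. These matches describe the letters only. Part of the PRKAR1A window with the full element, and of a half-site window of PDE4B, the gene with the widest spread between pigs, are printed in the direction of the gene, with the matched letters in capitals. The PRKAR1A sequence is chr12:11680771-11680838 (minus strand), with the element 92 to 99 bases before the start site at 11680709. The PDE4B sequence is chr6:146192678-146192742 (minus strand), with the half-site 73 to 77 bases before the start site at 146192635.
PRKAR1A: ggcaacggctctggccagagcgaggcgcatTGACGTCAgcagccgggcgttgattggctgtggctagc
PDE4B: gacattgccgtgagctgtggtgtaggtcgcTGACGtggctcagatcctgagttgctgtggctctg

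Differences between groups are given as log2FC, low IMF over high IMF, with its standard error (SE), from edgeR's quasi-likelihood test over 14262 genes, and levels are CPM after TMM scaling. A gene was called where its Benjamini-Hochberg adjusted p was at most 0.05 and its log2FC was 0.58 or more in size, and edgeR called 0 of the 14262. Beside this count, 10.4% of genes had an unadjusted p at or under 0.05, 5.38% being higher in low IMF and 5.04% higher in high IMF. The DESeq2 Wald test, the tool of the study, called 64 genes, 0.458% of those given an adjusted p. Of the 8 genes, PDE4D was higher in low IMF pigs and PRKAR1A higher in high IMF pigs at an unadjusted p at or under 0.05, and PDE4D alone was called by the Wald test. In bulk muscle, fewer cells of a type and less RNA per cell cannot be told apart.

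PDE4D, the long cyclic AMP phosphodiesterase gene that the study singled out on these same pigs, was the member with the clearest separation. Its CPM in high IMF pigs 1 to 6 were 88.8, 114.9, 126.3, 105.6, 118.8 and 89.5. Low IMF pigs 7 to 12 had 182.1, 160.4, 163.7, 152.9, 134.9 and 233.1. The groups did not overlap, pig 12 was the highest, and the nearest pigs of the groups, pigs 3 and 11, stood at 126.3 and 134.9. Over all genes tested, 0.259% were higher in every low IMF pig than in every high IMF pig. The means were 107.3 ± 15.6 and 171.2 ± 34.0 (SD, n = 6 each), 1.59-fold higher in low IMF. The log2FC was 0.67 (SE 0.14), with an unadjusted p of 0.000273 and an adjusted p of 0.190 in edgeR's test. The Wald test gave an adjusted p of 0.00335, and without pig 12 its log2FC of 0.57 was under the size threshold. An exact two-sided permutation test of mean log2 CPM gave p = 0.00216, the smallest that 924 arrangements of the pigs allow. PDE4D was chosen for its difference in these pigs, so none of these is independent evidence of it.

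**Figure D1:**
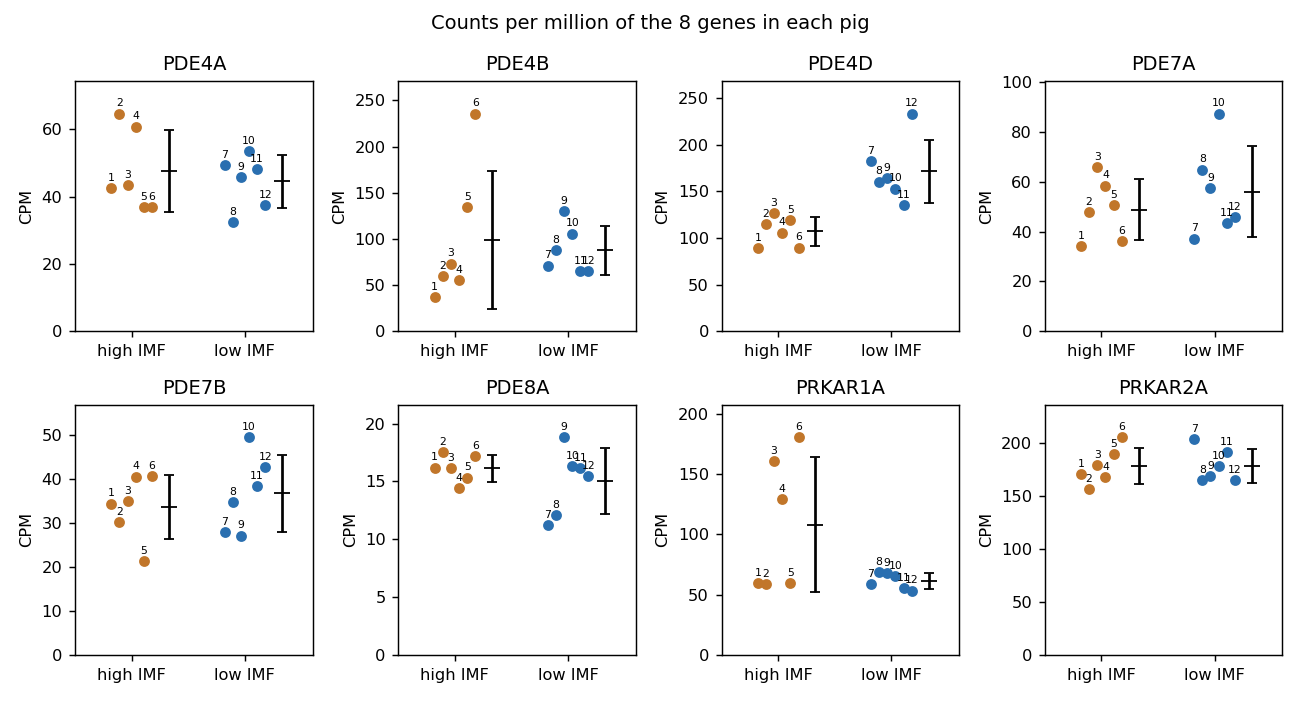
CPM (linear axes from 0) of PDE4A, PDE4B, PDE4D, PDE7A, PDE7B, PDE8A, PRKAR1A and PRKAR2A in each pig, numbered, with the mean and SD of each group (n = 6) as a black bar. PDE4D is the gene whose groups do not overlap, at 88.8 to 126.3 CPM in high IMF and 134.9 to 233.1 in low IMF, while PRKAR1A is high in pigs 3, 4 and 6 alone and PDE4B in pig 6.

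Among the pigs whose Y chromosome counts fit the label (4 high, 2 low IMF), the PDE4D log2FC was 0.89 (SE 0.24). Its unadjusted p was 0.00627 and its adjusted p 0.998 in edgeR's test. Cell type markers were compared between the groups, not with PDE4D. The fast fibre, endothelial and fibro-adipogenic lists each held 1 marker at an unadjusted p at or under 0.05. Over all genes tested this share was 10.4%, and the lists are small. Of 4 fast fibre markers, ATP2A1, the calcium pump of fast fibres, was higher in low IMF (log2FC 0.46, unadjusted p = 0.00343), and the summed list ranged from 17640 to 24420 CPM in high IMF and 21770 to 28710 in low IMF. Of 4 endothelial markers, CDH5 was higher in low IMF (log2FC 0.55, unadjusted p = 0.00411), with sums of 91.96 to 123.2 and 95.3 to 159 CPM. Of 6 fibro-adipogenic markers, PDGFRA was higher in high IMF (log2FC -0.42, unadjusted p = 0.0271), with sums of 1314 to 2543 and 1973 to 3000 CPM. By the sign of log2FC alone, 3 of these markers were higher in low IMF and 3 in high IMF. None of 7 adipocyte markers passed, and their sums were 61.4 to 138.5 CPM in high IMF and 36.5 to 162.7 in low IMF, with LEP at 0 in at least 1 low IMF pig. By sign alone, 5 of the 7 were higher in low IMF, the group picked for low fat, and 2 in high IMF. The slow fibre (5), smooth muscle (5), macrophage (6) and nerve (3) markers held none at an unadjusted p at or under 0.05. The part of fibre type or vessels in the PDE4D difference was not tested. RefSeq places 9 further genes within the PDE4D span, 2 of them on its strand and 7 on the other, and whether the counting used strand is not given in the sources used here.

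No other PDE4 gene passed the test. PDE4A, which encodes another enzyme of the family, ranged from 36.9 to 64.7 CPM in high IMF (median 43.0) and from 32.5 to 53.6 in low IMF (median 47.0), and the groups overlapped (log2FC -0.10, SE 0.17, unadjusted p = 0.581). PDE4B, an isoform gene known to be induced by cyclic AMP, ranged from 37.0 to 235.7 CPM in high IMF (median 66.3) and from 64.9 to 130.2 in low IMF (median 79.6). Pig 6 was the highest and pig 5 the next at 134.2, and the SD in high IMF was 74.8 about a mean of 99.1 CPM. Its log2FC was -0.18 (SE 0.39, unadjusted p = 0.653) and turned to 0.29 without pig 6, so no direction can be read. PDE4C, not a listed member, ranged from 17.1 to 33.9 CPM in high IMF and from 23.6 to 48.2 in low IMF (log2FC 0.25, SE 0.20, unadjusted p = 0.219).

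Within each pig, PDE4D took 39.6% ± 8.54 of the counts on the 4 PDE4 genes in high IMF and 50.8% ± 7.01 in low IMF (SD, n = 6 each), a value that no scaling between libraries changes. The difference of 11.2 percentage points had an exact permutation p of 0.0130, two-sided. The shares overlapped: pig 6 had 23.6% and the other high IMF pigs up to 46.4%, while low IMF pigs had 45.1% to 63.2%. The difference was 7.97 points without pig 6 (exact permutation p between 0.00866 and 0.0368 over the pigs left out). With counts divided by transcript length the difference was 7.43 points for the longest transcript and 5.23 for all exons, since PDE4D is the longest of the 4. The shares of PDE4A (17.9% and 13.4%), PDE4B (32.3% and 26.0%) and PDE4C (10.2% and 9.87%) did not pass, with exact permutation p of 0.152, 0.470 and 0.855. Summed over the 4 genes, PDE4 stood at 281.4 ± 64.5 CPM in high IMF and 335.9 ± 30.7 in low IMF (exact permutation p = 0.0758).

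**Figure D2:**
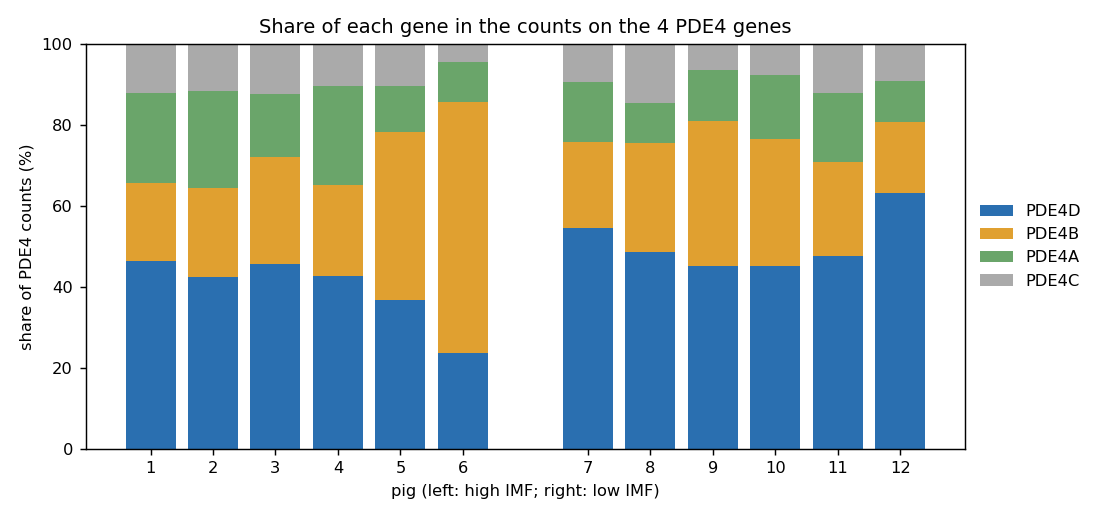
Share (%) of PDE4D, PDE4B, PDE4A and PDE4C in the counts on these 4 genes, stacked to 100% for each pig, with high IMF pigs on the left and low IMF pigs on the right. PDE4D takes 23.6% to 46.4% in high IMF and 45.1% to 63.2% in low IMF, and PDE4B takes 62.2% in pig 6.

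The PDE7 and PDE8 genes, which encode cyclic AMP phosphodiesterases that rolipram does not block, showed overlapping groups. PDE7A ranged from 34.2 to 65.8 CPM in high IMF (median 49.2) and from 37.2 to 87.4 in low IMF (median 51.7), with a log2FC of 0.20 (SE 0.22, unadjusted p = 0.373). The corresponding ranges of PDE7B were 21.4 to 40.6 (median 34.7) and 27.1 to 49.4 (median 36.5), with a log2FC of 0.12 (SE 0.18, unadjusted p = 0.497). Pig 10 was the highest in both PDE7 genes, and without it their log2FC were 0.03 and 0.02. PDE8A was the least abundant of the 8 in CPM, at 14.4 to 17.5 in high IMF (median 16.2) and 11.2 to 18.8 in low IMF (median 15.8). Its log2FC was -0.10 (SE 0.12, unadjusted p = 0.414).

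PRKAR1A encodes the type I alpha regulatory subunit, which holds protein kinase A inactive until cyclic AMP binds. High IMF pigs 1 to 6 had 59.8, 58.9, 160.3, 129.2, 59.5 and 180.3 CPM. Low IMF pigs 7 to 12 had 58.8, 68.4, 67.6, 65.3, 55.3 and 53.2 CPM. Pigs 3, 4 and 6 stood far above the other 9 pigs, and pigs 1, 2 and 5 lay within the low IMF range. The means were 108 ± 55.7 and 61.4 ± 6.53 CPM (SD, n = 6 each), with a log2FC of -0.81 (SE 0.28), an unadjusted p of 0.0128 and an adjusted p of 0.427. The exact permutation test gave p = 0.126, and the Wald test an adjusted p of 0.173, or 0.0376 without pig 2. Among the pigs whose Y chromosome counts fit the label, the log2FC was -0.97 (unadjusted p = 0.0844).

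The high IMF pigs 3, 4 and 6 were also those of their group with Y chromosome counts. High IMF pigs with Y counts had 129.2 to 180.3 CPM of PRKAR1A and those without had 58.9 to 59.8. In low IMF the pigs with Y counts had 55.3 to 67.6 CPM and those without had 53.2 to 68.4. In an edgeR fit with the interaction, chosen after these values were seen, the log2FC was -1.32 (SE 0.15) among the 6 pigs with Y counts and 0.02 (SE 0.15) among the 6 without. The difference of -1.34 (SE 0.21) had an unadjusted p of 4.27e-05 but an adjusted p of 0.206 over all genes, and so failed the correction. No gene had a smaller adjusted p, but the adjustment gives several genes the same value, so PRKAR1A need not rank first. At an unadjusted p at or under 0.05 stood 487 genes in that test, 3.42% of those tested. For the other 7 genes the same test gave unadjusted p from 0.0535 (PDE8A) to 0.871 (PDE7A). FAM20A, which RefSeq places over PRKAR1A on the other strand, was at 0.303 to 0.856 CPM in the pigs, with pig 3 the lowest and pig 6 the highest.

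PRKAR2A, the type II alpha regulatory subunit, was the steadiest of the 8, with a coefficient of variation of 8.91% over the 12 pigs. It ranged from 156.5 to 205.2 CPM in high IMF (median 174.7) and from 164.6 to 203.7 in low IMF (median 173.5), and the log2FC was 0.003 (SE 0.09, unadjusted p = 0.972). PRKAR1A made up 35.8% ± 11.14 of the counts on both regulatory genes in high IMF and 25.7% ± 3.03 in low IMF (SD, n = 6 each, exact permutation p = 0.0909). The first group spanned 23.9% to 47.2% and the second 22.4% to 29.3%, so they overlapped.

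Per kilobase of the longest RefSeq transcript, the levels of the 8 genes can be ordered. PRKAR2A had the highest median over the 12 pigs at 141 CPM per kb, but its RefSeq model is 1236 bases, a coding length without untranslated parts, so this level is overstated. PRKAR1A followed at 16.0 CPM per kb (13.6 to 46.2). PDE4B at 9.06 (4.65 to 29.6) and PDE4A at 8.86 (6.45 to 12.9) CPM per kb overlapped fully, as did PDE7A at 6.27 (4.36 to 11.14) and PDE4D at 6.15 (4.18 to 11.0). PDE8A at 4.18 (2.90 to 4.87) and PDE7B at 3.47 (2.13 to 4.92) CPM per kb came last and overlapped each other. PDE4D has a longest transcript of 21225 bases and 46246 bases over all exons, and on the second length its median was 2.82 CPM per kb, against 2.81 for PDE7B.

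PDE4D was set beside its relatives by the log2 ratio of PDE4D to each other gene within a pig, with exact two-sided permutation tests and Benjamini-Hochberg adjustment over the 7 ratios. Because PDE4D enters all 7, they are not separate findings, and because it was singled out for its difference in these same pigs, its ratios, like its share of the PDE4 counts, were likely to differ and are no independent evidence. Against PDE4A the ratio was 1.68-fold higher in low IMF (log2 difference 0.74, exact p = 0.0130, adjusted 0.0227). Against PDE8A it was 1.73-fold higher (0.79, exact p = 0.00216, adjusted 0.00758) and the groups did not overlap. PRKAR1A gave the largest log2 difference of the ratios, 1.32 (exact p = 0.00216, adjusted 0.00758), again with no overlap, and 1.08 without pig 6, PRKAR1A itself having a log2FC in the other direction and larger in size than that of PDE4D. Against the steady PRKAR2A it was 1.58-fold higher (0.66, exact p = 0.00649, adjusted 0.0152). The ratios to PDE7A (0.49, exact p = 0.0909, adjusted 0.106), PDE7B (0.54, exact p = 0.0779, adjusted 0.106) and PDE4B (0.60, exact p = 0.240, adjusted 0.240) did not pass. Without pig 10 the first passed (exact p = 0.00649, unadjusted over the ratios) and the second reached 0.0390, or 0.0260 without pig 5 in its place.

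Within groups, no relation of PDE4D with the other 7 genes was detected. With group means removed, Pearson's r of log2 CPM over the 12 pigs lay between -0.28 (PRKAR2A) and 0.16 (PDE7A), with permutation p from 0.390 to 0.815 and 0.815 for all 7 after adjustment. Spearman's rho lay between -0.38 (PDE8A) and 0.20 (PDE7A), with adjusted permutation p from 0.955 to 0.990. Without pigs 12 and 11, the pair farthest from the median of PDE4D, r lay between -0.51 (PDE7B) and 0.28 (PDE7A).

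The genes most like PDE4D within groups were taken from 11836 tested genes with a symbol, by Pearson's r of log2 CPM with group means removed, over 12 pigs. They share libraries and scaling with PDE4D, and being the top of many they are given as a description. UCP3, a mitochondrial carrier of muscle that fasting and fatty acids induce, came first with r = 0.96 (Spearman's rho 0.93), and r = 0.90 without pigs 12 and 11. UCP3 ranged from 2.39 CPM in pig 6 to 13.5 in pig 3 among high IMF pigs. In low IMF it ranged from 5.22 CPM in pig 11 to 56.2 in pig 12. In both groups, then, the pig with the highest PDE4D had the highest UCP3, and r was 0.89 within high IMF and 0.998 within low IMF. MYRIP (r = 0.87), an organelle transport adaptor, SH3KBP1 (0.86), an endocytosis adaptor, and TJP1 (0.85), a tight junction protein, were also among the highest. Without pigs 12 and 11 their r were 0.80, 0.67 and 0.86. MYRIP was low, at 0.166 to 1.34 CPM over the pigs. None of these 3 passed between groups at an unadjusted p at or under 0.05 (log2FC 0.21 to 0.49).

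**Figure D3:**
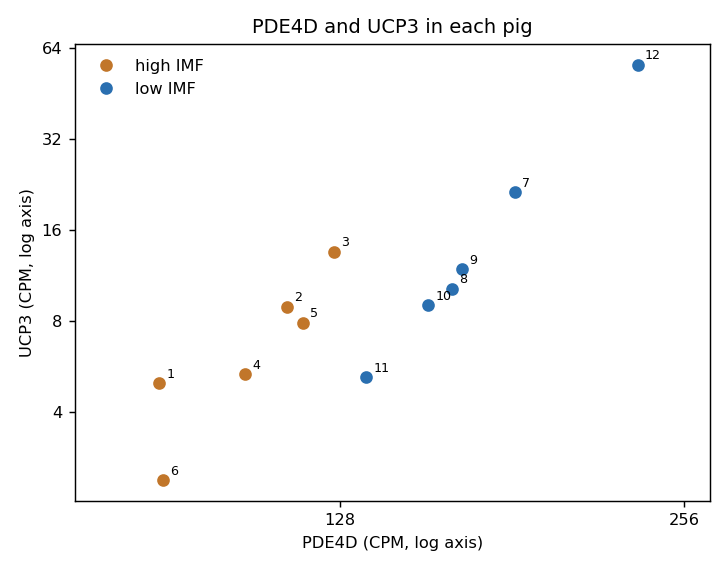
PDE4D (x axis) against UCP3 (y axis) in each of the 12 pigs, numbered, in CPM on log axes, with high and low IMF pigs in separate colours. Within each group UCP3 is mostly higher where PDE4D is higher, with pig 3 at the top of high IMF, and pig 12 has 233.1 CPM of PDE4D and 56.2 of UCP3.

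Around these genes, 142 other genes of the pathway were listed, of which 122 were tested, 10 had no identifier, 2 had no counts and 8 fell below the filter. At an unadjusted p at or under 0.05, 15 were higher in low IMF and 6 higher in high IMF, 17.2% of the 122 against 10.4% of all genes tested. Of these 21 genes, 9 came from the list of 14 cyclic AMP responsive genes, which was chosen with earlier results of these data known. The 17.2% therefore rests in large part on that list and shows no excess spread over the pathway. In the other lists the share ran from 0% to 28.6% (2 of 7 other protein kinase A genes). These lists are small, and their counts were not tested against the share of all genes. Without pig 6 the counts higher in low and in high IMF were 9 and 3, which is 9.84% of the 122 against 7.26% of all genes in that fit. In the pigs whose Y chromosome counts fit the label they were 8 and 4, again 9.84%, against 4.05% of all genes. None passed the adjusted p in edgeR, and 2 (RGS2 and GEM) did in the Wald test. The median log2FC of the 122 was 0.09, against -0.01 over all genes tested.

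Upstream of cyclic AMP, few genes moved. Of 10 tested Gs-coupled receptor genes none passed. The beta-adrenergic receptor genes ADRB1 and ADRB3 had at most 14 reads in any pig and were below the filter. PTGER4, a prostaglandin E2 receptor, had the smallest p (log2FC -0.53, SE 0.29, unadjusted p = 0.0845), and RAMP1, a partner of the calcitonin receptor-like receptor, the highest level per length, at a median of 63.9 CPM in high IMF and 72.3 in low IMF. Of 6 Gi-coupled receptors, ADRA2C, an alpha-2 adrenergic receptor, was higher in low IMF (log2FC 0.82, SE 0.35, unadjusted p = 0.0333) at medians of 0.421 and 0.778 CPM. ADORA1, the adenosine A1 receptor, was the most abundant of them per length and ranged from 16.0 to 218 CPM over the pigs (unadjusted p = 0.633). Of 9 G protein subunits, GNAI2, an inhibitory alpha subunit, was higher in low IMF (log2FC 0.25, SE 0.11, unadjusted p = 0.0331), and GNG11, the most abundant per length, did not pass (unadjusted p = 0.626).

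Among 9 tested adenylyl cyclases, the enzymes that make cyclic AMP, 2 were higher in low IMF. This is 22.2% of a short list, beside 10.4% of all genes tested in either direction. ADCY9 ranged from 44.3 to 94.3 CPM in high IMF and from 71.5 to 114 in low IMF (log2FC 0.44, SE 0.17, unadjusted p = 0.0218). ADCY1, a calcium-activated cyclase, ranged from 2.97 to 6.03 CPM and from 2.89 to 13.4 (log2FC 0.76, SE 0.29, unadjusted p = 0.0215). ADCY2, the most abundant per length, had medians of 69.1 and 71.3 CPM (unadjusted p = 0.813). None of 13 other phosphodiesterases passed. PDE8B had the smallest p among them (log2FC -0.58, SE 0.28, unadjusted p = 0.0558), at medians of 0.644 and 0.489 CPM, and PDE4C was the most abundant per length.

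The remaining protein kinase A genes were split, with 2 of 7 passing, 28.6% beside 10.4% of all genes tested. PRKACA, the alpha catalytic subunit, ranged from 77.9 to 89.7 CPM in high IMF and from 84.0 to 111 in low IMF (log2FC 0.20, SE 0.09, unadjusted p = 0.0338). PKIG, an inhibitor of the kinase, ranged from 3.19 to 4.62 CPM in high IMF and from 2.46 to 4.47 in low IMF (log2FC -0.37, SE 0.16, unadjusted p = 0.0372). PKIA, the main muscle inhibitor and the most abundant of the list per length, had medians of 651.3 and 484.1 CPM (log2FC -0.34, SE 0.17, unadjusted p = 0.0649). Of 7 other effectors of cyclic AMP, POPDC2, a membrane protein that binds it, was higher in low IMF (log2FC 0.45, SE 0.16, unadjusted p = 0.0130), and POPDC3, the most abundant per length, did not pass (unadjusted p = 0.140). The share of effectors passing was 14.3%, beside the same 10.4% of all genes.

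Anchoring proteins, which hold protein kinase A and PDE4 at their sites, gave 2 of 14 higher in low IMF. This is 14.3% of a short list, beside 10.4% of all genes tested in either direction. AKAP6, the anchor of the muscle nuclear envelope that binds PDE4D, ranged from 139.2 to 255.2 CPM in high IMF and from 199.5 to 249.1 in low IMF (log2FC 0.30, SE 0.13, unadjusted p = 0.0414). AKAP1, the mitochondrial anchor, gave a log2FC of 0.38 (SE 0.15, unadjusted p = 0.0212). RACK1, a ribosomal scaffold that binds a PDE4D isoform, was the most abundant per length among the genes of the list with a RefSeq length. It had medians of 500.5 and 507.4 CPM (log2FC 0.00, unadjusted p = 0.991). PDE4DIP, of the same list, had no RefSeq length under its symbol and was not ranked. Its reads over all pigs were 4394848, against 872696 for RACK1. Of 8 receptor kinases and arrestins, GRK4 passed (log2FC 0.28, SE 0.11, unadjusted p = 0.0289), and the other 7, GRK3 with the highest level per length among them, did not. The share passing was 12.5%, beside the same 10.4% of all genes.

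In the transcriptional arm, 2 of 13 genes of the CREB list passed, and 9 of 14 responsive genes. The CREB list count is 15.4%, beside 10.4% of all genes tested. Of the CREB factors, coactivators and salt-inducible kinases, CREBBP, a CREB-binding acetyltransferase, was higher in low IMF, at 41.1 to 79.5 CPM against 27.8 to 60.0 (log2FC 0.63, SE 0.20, unadjusted p = 0.00786). CRTC2, a CREB coactivator, was higher too (log2FC 0.43, SE 0.16, unadjusted p = 0.0185), and PPP1CA, the most abundant per length, was not (unadjusted p = 0.502). Of 14 tested cyclic AMP responsive genes, 4 were higher in low IMF and 5 higher in high IMF, 64.3% of the list against 10.4% of all genes tested. The list was chosen with earlier results of these data known, and the study had reported its members GEM and RGS2 as different in these same pigs. This share is therefore no independent evidence. Several genes of the list are known to answer to stretch, calcium and stress as well.

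The responsive genes moved in opposite directions. GEM, a small GTPase that inhibits calcium channels, ranged from 6.55 to 10.2 CPM in high IMF and from 3.52 to 5.30 in low IMF, with no overlap (log2FC -0.79, SE 0.15, unadjusted p = 0.000132, adjusted 0.190). Over all genes tested, 0.659% had groups that did not overlap, in either direction. RGS2, a brake on G protein signals, ranged from 7.80 to 28.4 CPM and from 2.76 to 9.07 (log2FC -1.69, SE 0.33, unadjusted p = 0.000171, adjusted 0.190). The Wald test gave adjusted p of 0.00106 for GEM and 0.000249 for RGS2. DUSP1, a phosphatase of MAP kinases, was lower in low IMF (log2FC -0.83, SE 0.28, unadjusted p = 0.0105). FOS, an immediate early factor and the most abundant of the list per length, had medians of 472.1 CPM in high IMF and 124.9 in low IMF (log2FC -1.19, SE 0.51, unadjusted p = 0.0359). EGR1, named after its values were seen like CITED1 and PPARGC1A, was lower too (log2FC -1.57, SE 0.62, unadjusted p = 0.0249), with pig 6 at 234.3 CPM.

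Higher in low IMF was NR4A3, an orphan nuclear receptor that beta-agonists induce in muscle, at a median of 170.4 CPM against 94.8, with pig 7 at 508.1 (log2FC 1.12, SE 0.37, unadjusted p = 0.0101). PPARGC1A, a coactivator of mitochondrial genes, had medians of 190.5 and 114.6 CPM (log2FC 0.92, SE 0.35, unadjusted p = 0.0197), again with pig 7 the highest at 391.9. UCP3 (log2FC 1.40, SE 0.54, unadjusted p = 0.0222) and CITED1 (log2FC 0.73, SE 0.31, unadjusted p = 0.0322) made up the 4. Their groups overlapped, and the exact permutation p was 0.0476 for NR4A3 and 0.0844 for both PPARGC1A and UCP3.

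**Figure D4:**
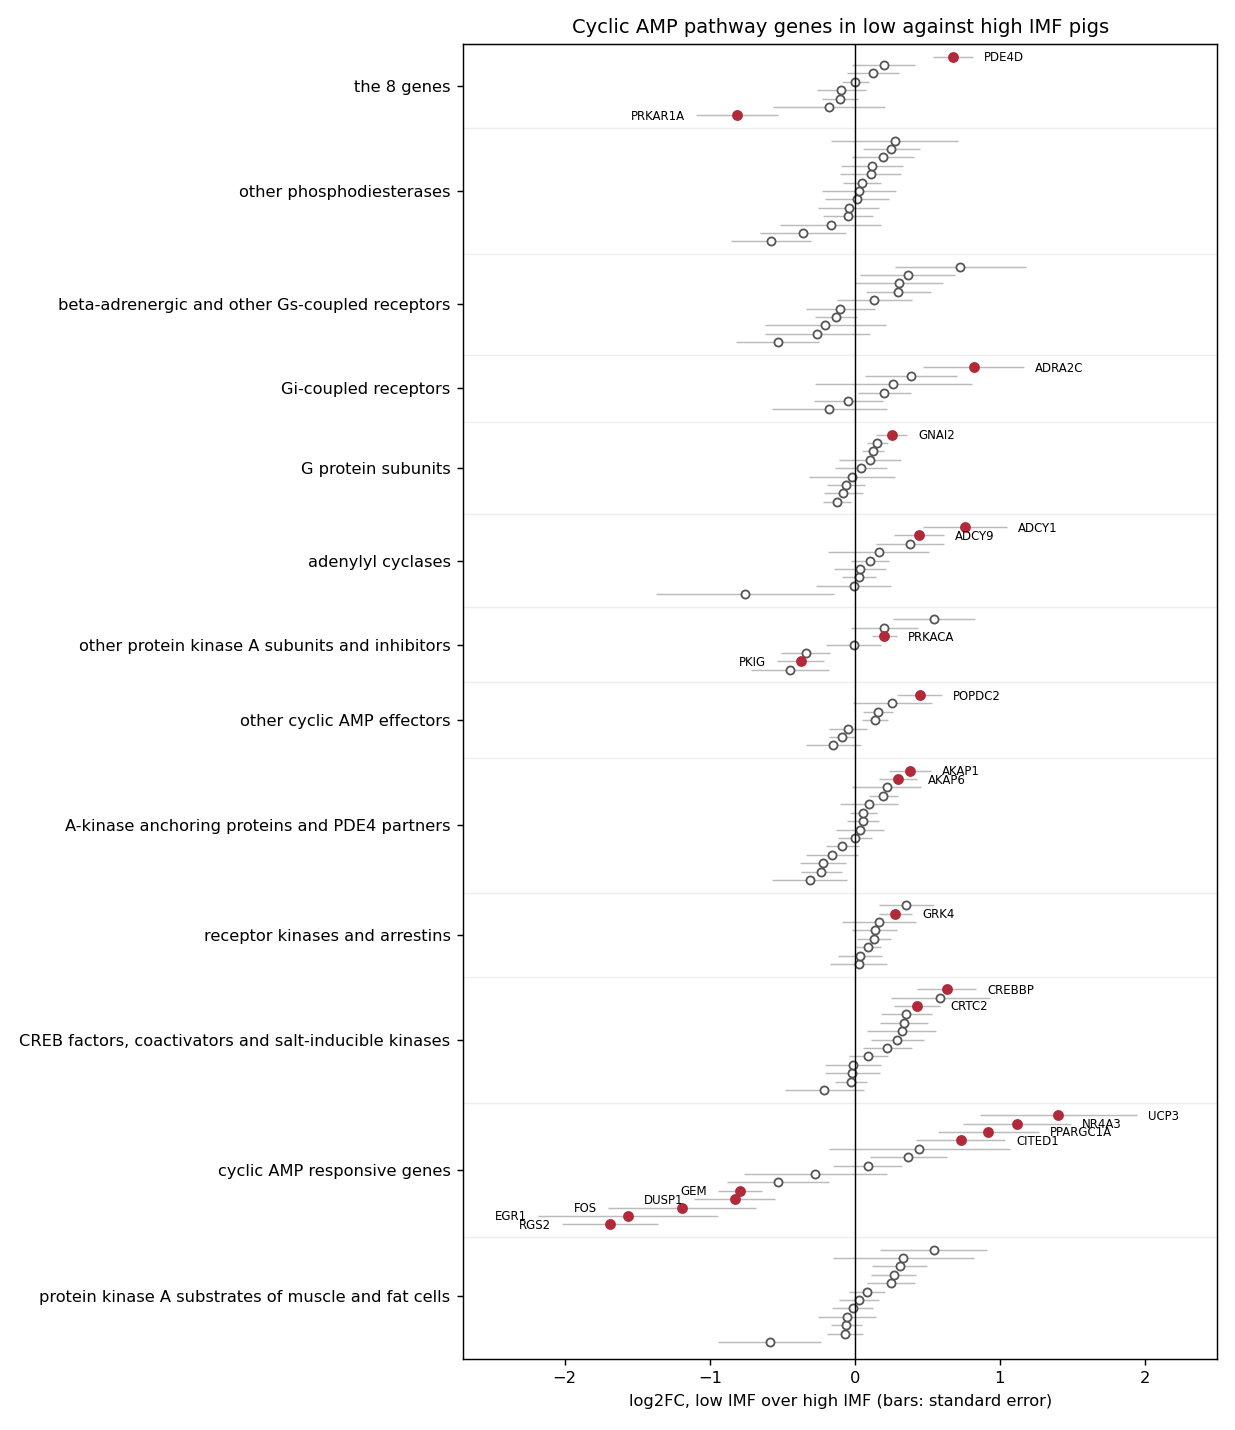
log2FC (x axis, low IMF over high IMF, bars are the standard error) of the 8 genes and of the 122 other pathway genes tested, grouped by role. Filled and named points have an unadjusted p at or under 0.05. Of those among the 122, 15 lie to the right of 0 and 6 to the left, 5 of these among the cyclic AMP responsive genes.

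None of 12 tested protein kinase A substrates of muscle and fat cells passed. CACNA1S, the voltage sensor of muscle, had the smallest p (log2FC 0.27, SE 0.15, unadjusted p = 0.105). PYGM, glycogen phosphorylase, whose kinase is the classic target of protein kinase A, was the most abundant per length at medians of 6236 CPM in high IMF and 6903 in low IMF (unadjusted p = 0.154). LIPE, hormone-sensitive lipase, had a log2FC of 0.54 (unadjusted p = 0.165).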

How the data were processed

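The authors trimmed paired reads (Trimmomatic), aligned them to Sscrofa11.1 (HISAT2), assembled transcripts (StringTie) and counted reads per gene (HTSeq). They deposited whole-number counts per Ensembl gene and pig, as integers without scaling. Which annotation release and strand option were used, and what was done with reads that align more than once, is not given in the sources used here, so overlapping and antisense genes are uncertain. Of 25880 genes, 5539 had no count. At 131048805 to 178013997 counts a pig, pigs spread more widely than counting error alone would allow (common biological coefficient of variation 0.332). No 2 pigs of a group agreed within sampling noise.

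Pigs were grouped by their labels. Genes kept by filterByExpr were scaled by TMM (factors 0.81 to 1.12) and compared with the quasi-likelihood test of edgeR 4.0.16 under R 4.3.3, fitting the group alone, with Benjamini-Hochberg adjustment over 14262 genes. Log2 CPM used a prior count of 2. Permutation tests were exact and two-sided, over 924 arrangements, and correlations used 100000 resamples within groups (Python 3.11.15, scipy 1.17.1). Alternatives were DESeq2 1.42.0 (Wald test, and its size factors in edgeR), limma-voom (limma 3.58.1), upper-quartile factors, other filters, a robust dispersion, sex or age as a covariate, pigs matching their labelled sex, and each pig left out. Sex by Y chromosome counts, as a covariate or in an interaction, and the Wald test with each pig left out were chosen after seeing the data. The scripts were tested on simulated data. Symbols came from the pig gene name table (14857 genes), and positions, lengths and sequences from RefSeq on Sscrofa11.1, matched by symbol.

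The genes and lists were chosen with earlier results of these data known. Named are the 8 genes, per list up to 4 others with an unadjusted p at or under 0.05 (or the smallest p) and the gene with the highest level per length, and the 5 genes most like PDE4D, except that some items are not reported here. Nothing in the labels ties pigs to slaughter days or lanes, so batches were not examined. The samples are separate animals.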

Additional observations from a re-analysis of the deposited data

How the results depend on the processing

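PDE4D kept its direction in all fits. In edgeR with 1 pig left out its log2FC was 0.58 (without pig 12) to 0.73 (without pig 11), with unadjusted p of 0.000145 to 0.000838 and adjusted p of 0.146 to 0.383, and it was 0.63 to 0.89 in the other planned fits. It was 0.68 (0.6784 and 0.679) in the Wald test, which called it. In the Wald test with 1 pig left out, a choice made after seeing the data, it was 0.57 (0.5695) to 0.74 with adjusted p of 0.00095 to 0.0173, and without pig 12 it fell under the size threshold of 0.58. Genes called were 57 in the Wald test on the genes of the edgeR fit and 64 on all, 0 to 1 with 1 pig left out in edgeR and 42 (without pig 6) to 187 (without pig 2) in the Wald test. Pigs matching their labelled sex gave 1 of the 8 genes and 8 pathway genes higher in low IMF at an unadjusted p at or under 0.05. With 1 pig left out these were 2 of the 8 in every fit, and 9 (without pig 6) to 22 (without pig 2) pathway genes higher in low IMF in edgeR, up to 25 in the Wald test, and 3 to 8 (up to 9) higher in high IMF. PRKAR1A was -0.94 (without pig 1) to -0.61 (without pig 6) in edgeR, -0.60 in the Wald test without pig 6, and -0.65 in limma-voom and with Y chromosome counts as a covariate. PDE4B reversed to 0.0631 in limma-voom. With 1 pig left out it ran from -0.3542 to 0.29 (without pig 6), and PDE4A from -0.1593 to 0.0119 in edgeR and 0.0171 in the Wald test (without pig 2). In pigs matching their labelled sex they were -0.56 and -0.25. PRKAR2A reversed to -0.0014 with upper-quartile factors, to -0.0001 with 10 counts in every pig, and in 5 of the 12 fits of each tool with 1 pig left out, where it ran from -0.0321 to 0.0472 in edgeR and from -0.0333 to 0.0523 in the Wald test. The ratio of PDE4D to PDE7A was 0.3487 (without pig 12) to 0.6556 (without pig 10), where it passed, and that to PDE7B 0.4327 (without pig 6) to 0.6992 (without pig 5), passing in 2 of 12. The PDE4D share differed by 7.97 to 12.5 points with 1 pig left out. No paired analysis was possible because the groups share no replicate numbers. The correlation of PDE4D with PDE4A was 0.014 by Spearman and 0.19 without pigs 12 and 11, against -0.07. Where not stated, the cause was not tested. At this depth 8 listed genes, ADRB1 and ADRB3 among them, were too low to test.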

Other observations

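The genes whose levels went most closely with PRKAR1A within groups, named after that gene's values were seen, were POLR1E (r = 0.91), PAK1IP1 (0.88), SURF2 (0.87), WTAP (0.86) and TMEM139 (0.85), by the same measure over 12 pigs. POLR1E and PAK1IP1 serve RNA polymerase I and ribosome assembly. POLR1E stood at 11.2, 11.5 and 10.2 CPM in pigs 3, 4 and 6, against 6.51 to 8.24 in the other 9 pigs. PAK1IP1 stood at 16.2, 16.0 and 21.0 CPM in those pigs, against 11.3 to 13.4. SURF2 was at 11.2 to 13.4 CPM in pigs 3, 4 and 6, at 7.25 to 8.19 in pigs 1, 2 and 5, and at 12.0 to 13.7 in low IMF pigs. For these 3 genes r within high IMF was 0.91 to 0.93, and within low IMF it was 0.50, -0.30 and 0.03.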
